A study of Mus musculus with 10 samples.

Results

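Lysosomal genes were followed across mouse leukemia stem cell (LSC) lines as a set of 40 genes listed by function, which encode acid hydrolases and their cofactors, lysosomal membrane proteins, subunits of the vacuolar proton pump (V-ATPase) and the transcription factors Tfeb and Tfe3. All 40 were found among the 18194 genes of the array, each read from 1 probe set, the brightest on average, and all 40 passed the filter on low values. The samples were 2 RH-RAS lines (lines 1 and 3) grown with 1 µM SGC0946, an inhibitor of the histone methyltransferase Dot1l, for 4 days, 3 NUP98-JARID1A lines, 1 MLL-AF9 line and 4 untreated RH-RAS lines, each with 1 Affymetrix array. RH-RAS lines were made ex vivo by coexpressing DNMT3A with the R882H mutation and NRAS with the G12D mutation, so untreated and treated RH-RAS cells carry both. NUP98-JARID1A and MLL-AF9 are fusion oncogenes that transform blood progenitors. All cultures received stem cell factor and serum. Independent derivation is stated for RH-RAS lines and for no others, so p-values that involve NUP98-JARID1A lines reflect the spread between these cultures, which may be technical. Whether untreated cultures received a vehicle is not given in the sources used here.

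Lysosomes break down proteins, glycans and lipids taken up from outside or delivered by autophagy, and their enzymes work at the low pH that the V-ATPase maintains by pumping protons into the lumen. Tfeb and Tfe3 are basic helix-loop-helix leucine zipper proteins that bind CACGTG-type elements in the promoters of many lysosomal genes when they enter the nucleus, and they are held in the cytoplasm when the kinase mTORC1 is active on the lysosome. Macrophages carry many lysosomes, which digest what they engulf. In progenitors and leukemic cells the organelle also serves nutrient sensing.

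Values are log2 intensities, on which 1 unit is a 2-fold difference, and the array medians lay between 5.72 and 5.82. A gene was tested when it lay above the median on at least 2 arrays, which left 11993 genes. The panleukocyte marker Ptprc was at 12.33 to 13.05 on all 10 arrays, and the progenitor marker Kit was at 8.56 and 8.71 in treated RH-RAS lines and at 9.91 to 12.27 on the other arrays. Untreated line 4 stood apart from untreated lines 1 to 3, so values are given for each line. In cultures measured as a whole, a change in the share of cells of one kind and a change in RNA per cell cannot be told apart.

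Treated and untreated RH-RAS lines were compared first, to see how lysosomal genes respond to Dot1l inhibition. Of the 40 genes, 21 rose, 2 fell and 17 did not pass the test (limma, Benjamini-Hochberg adjusted p under 0.05 over all tested genes). Over all 11993 genes 6.84% rose and 5.12% fell. The median change of the 40 genes was 0.77 on the log2 scale, against 0.02 for all genes. The 2 treated arrays lay above all 4 untreated arrays for 32 genes and below them for 2, where 26.6% and 21.4% of all genes did so. In line 1 the median change was 0.82 and in line 3 it was 0.77, and 38 genes moved the same way in both lines. With the line as a block, which pairs the arrays of a line (the paired fit), 11 rose and 2 fell. The count rests on both lines, since a fit with a single array left in one arm called 3 genes when treated line 1 was left out and 0 when treated line 3 was. It called 3 when untreated line 1 was left out and 4 when untreated line 3 was. Ctsz, Grn and Tfe3 were called in 3 of these 4 fits.

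**Figure D1:**
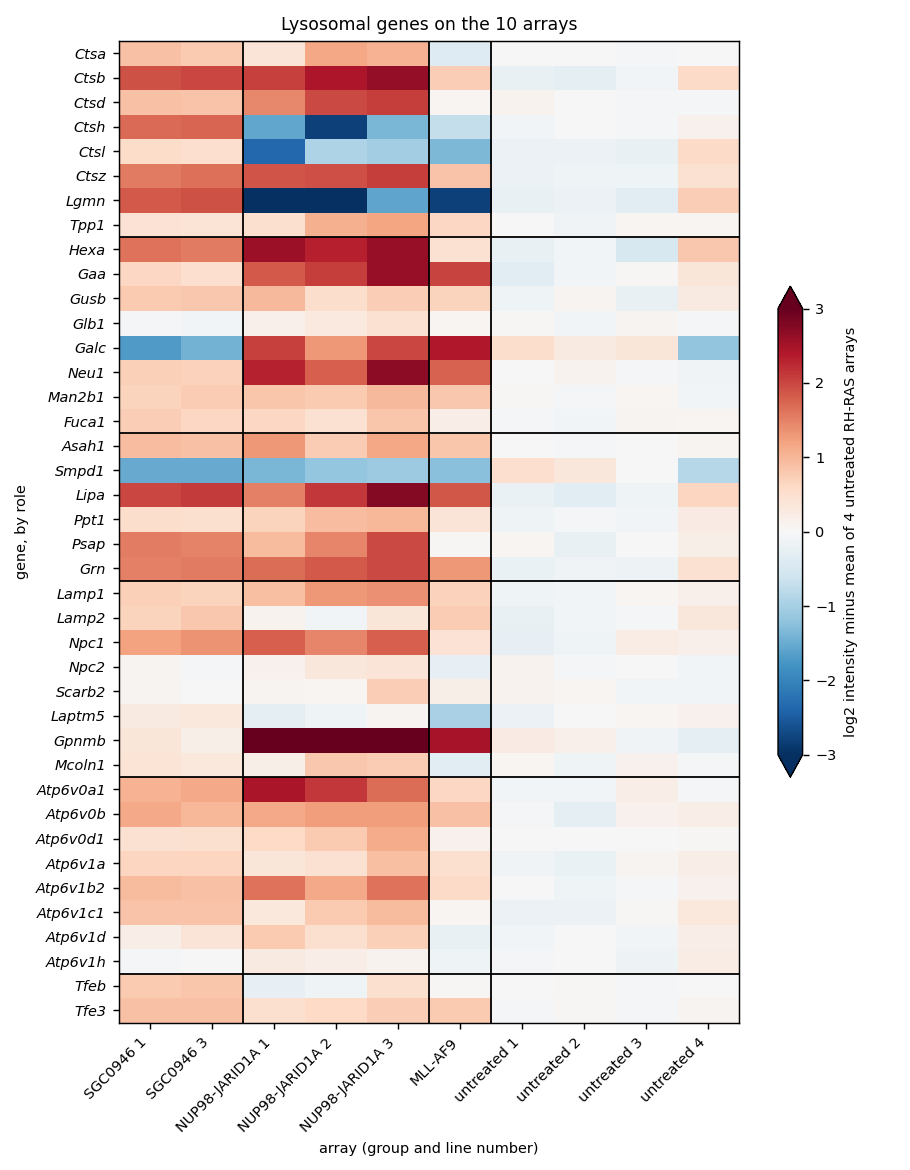
Log2 intensity of 40 lysosomal genes (rows, grouped by role as proteases, glycosidases, lipid hydrolases and cofactors, membrane proteins, V-ATPase subunits, and Tfeb with Tfe3) on 10 arrays (columns), as the difference from the mean of the 4 untreated RH-RAS arrays. Colours stop at 3 units either way. The SGC0946 columns are red in most rows and blue for Galc and Smpd1, while Ctsh, Ctsl and Lgmn are blue in the NUP98-JARID1A columns.

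Among the 8 proteases, 4 rose and 4 did not pass, with a median change of 1.30. The cysteine protease Ctsb read 13.04 and 13.14 in treated lines 1 and 3, against 10.91 and 11.06 in the same lines untreated, and 10.86 and 11.70 in untreated lines 2 and 4. Both treated arrays lay far above every untreated array, line 4 included. Ctsb rose by 2.10 ± 0.28 (SE, n = 2 per group; limma adjusted p = 0.00633), or 4.30-fold. Ctsz, a cysteine carboxypeptidase, read 13.41 and 13.50 in treated lines, against 11.68 and 11.72 in untreated lines 1 and 3 and 11.72 and 12.31 in untreated lines 2 and 4, and rose 3.38-fold (1.76 ± 0.18; limma adjusted p = 0.00354). Ctsh, an aminopeptidase, read 11.06 and 11.11 in treated lines, against 9.28 and 9.29 in untreated lines 1 and 3 and 9.35 and 9.49 in untreated lines 2 and 4. The 4 untreated arrays spanned only 9.28 to 9.49, and Ctsh rose by 1.81 ± 0.42 (limma adjusted p = 0.0333; 0.105 in the paired fit). Ctsd, the main aspartic protease of the lysosome, read 12.34 and 12.32 in treated lines, against 11.56 and 11.40 in untreated lines 1 and 3 and 11.46 and 11.42 in untreated lines 2 and 4, and rose 1.80-fold (limma adjusted p = 0.0387; 0.111 in the paired fit). Neither Ctsd nor Ctsh passed when untreated line 2 or 4 was left out of the fit. Without line 4, 2 of the 8 proteases rose, and with the 6 RH-RAS arrays alone 7 did. The fit of those 6 arrays called more genes everywhere, 2745 of all 11993 genes, against 1434 in the fit of all 10 arrays.

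Legumain (Lgmn), an asparaginyl endopeptidase that also processes cathepsins, had the largest difference of the proteases and did not pass. It read 12.49 and 12.56 in treated lines, against 10.42 and 10.31 in untreated lines 1 and 3 and 10.48 and 11.40 in untreated lines 2 and 4. The groups did not overlap, at a change of 2.16 ± 0.70 (limma adjusted p = 0.0941). Its NUP98-JARID1A values, which enter the SE, had an SD of 1.26 (n = 3), and in a fit of the 6 RH-RAS arrays alone its adjusted p was 0.00414. Cathepsin L (Ctsl) read 12.54 and 12.49 in treated lines, against 11.82 and 11.77 in untreated lines 1 and 3, while untreated line 4 was as high at 12.57. Ctsl did not pass (0.72 ± 0.46; limma adjusted p = 0.388). Ctsa, a carboxypeptidase that protects the glycosidases Neu1 and Glb1, was at 0.83 ± 0.23 (limma adjusted p = 0.0589), and the tripeptidyl peptidase Tpp1 at 0.40 ± 0.22 (0.306). Ctsa passed with a variance trend (limma adjusted p = 0.0474) and with all 4 untreated lines as control (0.0207). With the 6 RH-RAS arrays alone, Ctsa (0.00202) and Tpp1 (0.0292) passed.

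**Figure D2:**
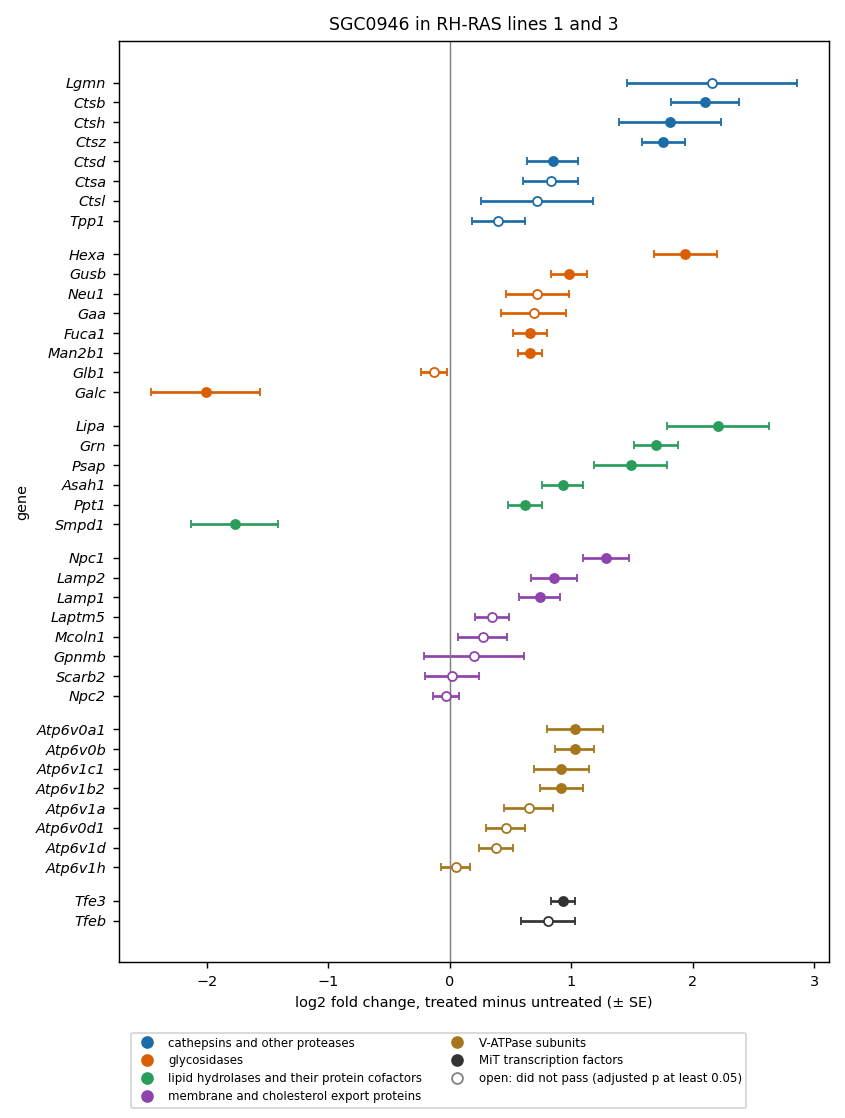
Log2 fold change of each gene in SGC0946-treated minus untreated RH-RAS lines 1 and 3 (x axis, with SE bars), grouped by role (colours). Filled points passed the test and open points did not. Galc and Smpd1 stand at −2.01 and −1.77, opposite to the 21 genes that rose.

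The glycosidases, which trim sugar chains, did not move as one. Of 8, 4 rose, 1 fell and 3 did not pass. Hexa, the alpha subunit of beta-hexosaminidase, read 11.86 and 11.79 in treated lines, against 10.01 and 9.77 in untreated lines 1 and 3. Untreated line 2 was at 10.15 and line 4, the highest untreated array, at 11.04, still below both treated arrays. Hexa rose 3.83-fold (1.94 ± 0.26; limma adjusted p = 0.00648). Beta-glucuronidase Gusb rose by 0.98 ± 0.15, alpha-mannosidase Man2b1 by 0.66 ± 0.10 and alpha-fucosidase Fuca1 by 0.66 ± 0.14 (limma adjusted p = 0.00992, 0.00860 and 0.0241, the last 0.0747 in the paired fit). Man2b1 was at 0.22 with the mean of all probe sets and Gusb at 0.74 with the most variable one, and neither passed there (limma adjusted p = 0.407 and 0.142). Acid alpha-glucosidase Gaa (0.69 ± 0.27) and the sialidase Neu1 (0.72 ± 0.26) did not pass (0.149 and 0.120), although both treated arrays lay above every untreated array for each. Both genes passed with the 6 RH-RAS arrays alone (limma adjusted p = 0.0389 and 0.00570). Beta-galactosidase Glb1 read 9.68 and 9.65 in treated lines, against 9.76 and 9.82 in untreated lines 1 and 3, and did not pass (−0.13 ± 0.11; 0.533). Untreated line 2 (9.65) and line 4 (9.69) read like the treated ones.

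Galactosylceramidase (Galc), which removes galactose from galactosylceramide and psychosine, fell. It read 4.71 and 5.0 in treated lines, against 6.95 and 6.78 in untreated lines 1 and 3, and 6.69 and 5.24 in untreated lines 2 and 4. The treated values lay below the array median, and the change was −2.01 ± 0.45 (limma adjusted p = 0.0306). This is the reading of 1 of its 3 probe sets, and the others changed by −0.04 and 0.06 at lower mean levels. With the mean of all probe sets the change was −0.66 (limma adjusted p = 0.0885), and with all 4 untreated lines as control it was −1.56 (0.0505).

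Of the 6 lipid hydrolases and cofactors, 5 rose and 1 fell. Lysosomal acid lipase (Lipa), which frees cholesterol and fatty acids from cholesteryl esters and triglycerides, had the largest rise of the 40 genes. It read 10.71 and 10.82 in treated lines, against 8.52 and 8.58 in untreated lines 1 and 3, and 8.40 and 9.37 in untreated lines 2 and 4. Lipa rose 4.64-fold (2.21 ± 0.42; limma adjusted p = 0.0182), and its other probe sets changed by 2.31 and 2.44, the last of which, the most variable, did not pass (0.0652). Progranulin (Grn), which is cut into granulins in the lysosome, read 12.78 and 12.82 in treated lines, against 11.07 and 11.12 in untreated lines 1 and 3 and 11.15 and 11.72 in untreated lines 2 and 4. It rose 3.25-fold (1.70 ± 0.18; limma adjusted p = 0.00381). Prosaposin (Psap), the precursor of the saposins that present sphingolipids to hydrolases, read 13.53 and 13.50 in treated lines, against 12.05 and 12.00 in untreated lines 1 and 3, a rise of 1.49 ± 0.30 (limma adjusted p = 0.0208; 0.0641 in the paired fit). Acid ceramidase Asah1 rose by 0.93 ± 0.17 and the thioesterase Ppt1, which removes palmitate from proteins, by 0.62 ± 0.14 (limma adjusted p = 0.0164 and 0.0319; 0.0595 and 0.0662 in the paired fit). With the most variable probe set Psap was at 1.30 (0.0592) and Ppt1 at 0.61 (0.0738), and with the mean of all probe sets Ppt1 was at 0.25 (0.118).

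Acid sphingomyelinase (Smpd1), which turns sphingomyelin into ceramide, fell 3.41-fold. It read 9.04 and 9.06 in treated lines, against 11.07 and 10.57 in untreated lines 1 and 3, and 10.91 and 9.70 in untreated lines 2 and 4. The treated values nearly coincided and lay below all untreated ones, with line 4 the nearest. The change was −1.77 ± 0.36 (limma adjusted p = 0.0219), and the other probe set of Smpd1 changed by −0.73.

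Of the 8 membrane and cholesterol export proteins 3 rose and 5 did not pass, at a median change of 0.31. Npc1, the membrane protein that carries cholesterol out of lysosomes, read 7.83 and 7.99 in treated lines, against 6.38 and 6.86 in untreated lines 1 and 3 and 6.51 and 6.78 in untreated lines 2 and 4. It rose by 1.29 ± 0.19 (limma adjusted p = 0.00919), while its luminal partner Npc2 was at −0.03 ± 0.11 (0.926) with treated values of 13.26 and 13.16 inside the untreated range of 13.10 to 13.30. Lamp1, an abundant glycoprotein of the lysosomal membrane, read 12.60 and 12.56 in treated lines, against 11.75 and 11.95 in untreated lines 1 and 3 and 11.80 and 12.05 in untreated lines 2 and 4, and rose 1.67-fold (limma adjusted p = 0.0368; 0.0882 in the paired fit). Lamp2, its close relative with a role in autophagy, rose 1.82-fold (0.86 ± 0.19; limma adjusted p = 0.0280), and its most variable probe set was at 1.30 and did not pass (0.106). Laptm5, a lysosomal protein of blood cells (0.35 ± 0.14), the calcium channel Mcoln1 (0.27 ± 0.20), Scarb2, which carries beta-glucocerebrosidase to lysosomes (0.02 ± 0.22), and the glycoprotein Gpnmb (0.20 ± 0.41) did not pass. Gpnmb stayed under the median of each RH-RAS array, at 5.75 and 5.57 in treated lines and at 5.12 to 5.64 in untreated lines, and was tested only because of its level in the fusion lines.

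Of the 8 V-ATPase subunits, 4 rose and 4 did not pass, and the median change was 0.79. In the membrane sector V0, the proton path, Atp6v0a1 read 8.12 and 8.21 in treated lines, against 7.0 and 7.27 in untreated lines 1 and 3 and 7.0 and 7.05 in untreated lines 2 and 4, a rise of 1.03 ± 0.23 (limma adjusted p = 0.0315; 0.0900 in the paired fit). Atp6v0b read 12.11 and 11.96 in treated lines, against 10.92 and 11.09 in untreated lines 1 and 3, and also rose by 1.03 (SE 0.16; limma adjusted p = 0.0112). Each treated array stood above the highest untreated one for both subunits. In the V1 sector, which hydrolyses ATP, Atp6v1b2 rose by 0.92 ± 0.18 and Atp6v1c1 by 0.92 ± 0.23 (limma adjusted p = 0.0198 and 0.0431; 0.0592 and 0.0797 in the paired fit). Atp6v1b2 was at 0.47 (0.137) with the mean of all probe sets, and Atp6v1c1 did not pass with its most variable probe set (0.0626) or with no filter on low values (0.0507). Atp6v1a, the catalytic subunit, was at 0.65 ± 0.20 (0.0859), Atp6v0d1 at 0.46 ± 0.16 (0.102) and Atp6v1d at 0.38 ± 0.14 (0.129). Atp6v1a passed with the mean of all probe sets (limma adjusted p = 0.0455) and with its most variable one (0.0350). With all 4 untreated lines as control, Atp6v1a (0.0332) and Atp6v0d1 (0.0411) passed. Atp6v1h, a regulatory subunit, was at 0.05 ± 0.12 (0.838), with treated values of 10.64 and 10.69 inside the untreated range of 10.55 to 10.93. In the paired fit 1 subunit, Atp6v0b, rose. With the 6 RH-RAS arrays alone, where 2745 of all genes were called, 6 subunits rose, among them Atp6v1a (limma adjusted p = 0.0260) and Atp6v0d1 (0.0109).

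Tfe3 read 9.49 and 9.48 in treated lines, against 8.55 and 8.56 in untreated lines 1 and 3, and 8.64 and 8.70 in untreated lines 2 and 4. Both treated arrays lay above all 4 untreated ones, and Tfe3 rose by 0.93 ± 0.10, or 1.90-fold (limma adjusted p = 0.00448; 0.0201 in the paired fit). Tfeb read 8.92 and 8.97 in treated lines, against 8.15 and 8.11 in untreated lines 1 and 3, and 8.18 and 8.14 in lines 2 and 4. All 4 untreated arrays lay close together and below both treated ones, yet Tfeb missed the threshold (0.81 ± 0.22; limma adjusted p = 0.0525), and it passed in the fit of RH-RAS arrays alone (0.00202). The array reports RNA and says nothing of where these proteins were in the cell.

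Promoters of the set were searched for the letters that Tfeb and Tfe3 are known to bind. RefSeq promoter windows (build GRCm38.p6, 250 bases before to 50 after a start) were available for 33 of the 40 genes, in 39 windows. The full palindrome of the CLEAR motif (coordinated lysosomal expression and regulation), its inner part TCACGTGA and the core CACGTG were counted, of which each longer string contains the shorter and all read alike on both strands. The full palindrome was in 0 of the 39 windows and in 0.326% of all 32851 windows. TCACGTGA was in 5 of the 39 and in 0.974% of all, and CACGTG in 11 of the 39 and in 7.15% of all. Of the 11 genes with CACGTG, 3 rose with SGC0946 (Ctsd, Lamp1 and Atp6v0b) and 8 did not pass, at a median change of 0.72. Of the 22 genes with a window and no CACGTG, 12 rose and 2 fell, at a median of 0.69.

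The 250 bases before the start are shown 5′ to 3′ for 5 genes, with matches in capitals. Ctsd (chr7:142387828-142388077, minus strand), Lamp1 (chr8:13158911-13159160, plus strand) and Atp6v0b (chr4:117887330-117887579, minus strand) held the letters and rose. Mcoln1 (chr8:3500269-3500518, plus strand) held them and did not pass. Lipa (chr19:34527475-34527724, minus strand), with the largest rise, had no match in this window.
Ctsd: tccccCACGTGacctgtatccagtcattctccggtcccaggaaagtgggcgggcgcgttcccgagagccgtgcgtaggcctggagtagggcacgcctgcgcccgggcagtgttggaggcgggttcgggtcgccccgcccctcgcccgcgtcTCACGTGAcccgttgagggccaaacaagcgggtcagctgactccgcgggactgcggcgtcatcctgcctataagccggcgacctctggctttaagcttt
Lamp1: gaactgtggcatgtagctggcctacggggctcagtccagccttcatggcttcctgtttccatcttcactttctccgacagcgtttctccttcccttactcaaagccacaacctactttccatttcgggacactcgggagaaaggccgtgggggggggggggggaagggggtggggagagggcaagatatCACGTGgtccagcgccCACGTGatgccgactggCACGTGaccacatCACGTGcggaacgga
Mcoln1: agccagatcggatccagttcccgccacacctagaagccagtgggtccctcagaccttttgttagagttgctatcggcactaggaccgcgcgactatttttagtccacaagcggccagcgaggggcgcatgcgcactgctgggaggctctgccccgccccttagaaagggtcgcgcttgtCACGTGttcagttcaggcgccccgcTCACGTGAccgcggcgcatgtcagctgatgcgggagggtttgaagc
Atp6v0b: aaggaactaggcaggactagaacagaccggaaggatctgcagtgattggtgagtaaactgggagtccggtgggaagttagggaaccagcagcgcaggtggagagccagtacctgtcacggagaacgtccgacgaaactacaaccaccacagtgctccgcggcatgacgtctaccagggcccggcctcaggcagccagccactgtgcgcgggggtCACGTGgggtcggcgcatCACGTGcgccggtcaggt
Lipa: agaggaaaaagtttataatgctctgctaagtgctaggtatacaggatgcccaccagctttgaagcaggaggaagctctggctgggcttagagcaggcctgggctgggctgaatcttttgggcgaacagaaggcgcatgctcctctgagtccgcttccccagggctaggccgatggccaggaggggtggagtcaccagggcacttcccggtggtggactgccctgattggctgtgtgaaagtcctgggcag
Lamp1 held 4 copies of CACGTG, centred 12, 25, 42 and 58 bases before the start. Ctsd and Mcoln1 each held 1 copy of TCACGTGA, centred 95 and 42 bases before the start, besides a plain CACGTG at 242 and 68 bases, and Atp6v0b held 2 copies at 15 and 33 bases.

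Other lysosomal genes, listed from the pathway, were read the same way. Of 29 further hydrolases and activators 5 rose, 1 fell and 23 did not pass (median 0.26). Without untreated line 4 in the fit 8 rose, and with the 6 RH-RAS arrays alone, where 2745 of all genes were called, 12 did. Ctss, a cathepsin of antigen-presenting cells, read 13.22 and 13.24 in treated lines, against 11.20 and 11.23 in untreated lines 1 and 3, a rise of 2.02 ± 0.34 (limma adjusted p = 0.0136). Ctsc, which activates granule proteases, rose by 1.31 ± 0.12 (0.00347) and Naglu, a heparan sulfate hydrolase, by 0.91 ± 0.16 (0.0145). Ctsw, a cathepsin of cytotoxic lymphocytes, fell and read 6.55 and 6.60 in treated lines, against 9.26 and 8.93 in untreated lines 1 and 3 (−2.52 ± 0.63; limma adjusted p = 0.0429; 0.0646 in the paired fit). Of 9 other V-ATPase subunits, only Tcirg1, the a3 subunit of osteoclasts and macrophages, rose (0.84 ± 0.15; limma adjusted p = 0.0157; 0.0586 in the paired fit). Of 16 other membrane proteins 3 rose, namely Cd68 (2.25 ± 0.40), the cystine exporter Ctns (1.07 ± 0.22) and Tmem192 (0.67 ± 0.09), with limma adjusted p = 0.0147, 0.0243 and 0.00735 (0.0740 for Ctns in the paired fit). With the 6 RH-RAS arrays alone, 3 of the other V-ATPase subunits rose and 1 fell, and 9 of the other membrane proteins rose.

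Among 8 genes of enzyme sorting 1 rose and 1 fell. Igf2r, the large receptor that brings enzymes tagged with mannose 6-phosphate to the lysosome, read 4.46 and 5.07 in treated lines, against 8.19 and 7.83 in untreated lines 1 and 3, and 8.28 and 7.0 in lines 2 and 4. It fell by 3.24 ± 0.39 to below the array median (limma adjusted p = 0.00527), while the small receptor M6pr was at 11.96 on both treated arrays and at 11.76 to 11.78 in the untreated lines (0.20 ± 0.09; 0.241). Igf2r passed the filter on low values only through the untreated lines, so the filter itself favoured a difference. Nagpa, which uncovers the mannose 6-phosphate tag, rose by 0.82 ± 0.17 (limma adjusted p = 0.0242; 0.0645 in the paired fit). Of 16 relatives and regulators of Tfeb, 2 rose. With the 6 RH-RAS arrays alone, where 2745 of all genes were called, 6 rose and 1 fell. Mitf, of the same transcription factor family, read 7.49 and 7.56 in treated lines, against 5.82 and 5.97 in untreated lines 1 and 3 (1.63 ± 0.32; limma adjusted p = 0.0198), and the Ragulator subunit Lamtor1 rose by 0.64 ± 0.12 (0.0177; 0.0553 in the paired fit). The kinase gene Mtor was at −0.04 ± 0.09 and its partner Rptor at −0.11 ± 0.12.

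Most tested markers of monocytes and macrophages moved with these changes. Of 14 tested markers 9 rose with SGC0946, among them Mrc1 (5.10 ± 0.69), Cd14 (5.0 ± 1.09), Csf1r (4.90 ± 0.67) and Lyz2 (4.68 ± 0.41), with limma adjusted p of at most 0.0275. The other 5 did not pass, among them Cd163 at −1.12 ± 0.95 and Marco at 0.11 ± 0.19 (limma adjusted p = 0.526 and 0.772). With the 6 RH-RAS arrays alone, where 2745 of all genes were called, 11 rose and 1 fell, Cd163 (limma adjusted p = 0.00154). Mrc1 passed the filter on low values only through the treated arrays, so the filter itself favoured a difference. The summed intensity of the 17 listed markers was 38387 and 40260 on the treated arrays, against 6874 and 7267 in untreated lines 1 and 3, 7074 in line 2 and 13525 in line 4. The complement genes C1qa and C1qb and the receptor gene Mertk failed the filter on low values. Of 7 stem and progenitor markers 5 fell, the largest falls being those of Kit (−1.98 ± 0.19), Hoxa9 (−1.82 ± 0.13), Cd34 (−1.67 ± 0.17) and Meis1 (−1.33 ± 0.13). The part of either list in the lysosomal changes was not tested. Cd68 is also counted among the membrane proteins above.

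Untreated line 4 lay between untreated lines 1 to 3 and both treated arrays for 18 of the 23 genes called with SGC0946, where 76.2% of all called genes did so. It differed from the mean of lines 1 to 3 by at least 1 for 3 of the 40 genes, with Hexa higher (1.06) and Galc and Smpd1 lower (−1.57 and −1.15), where 0.867% of all genes were higher by that much and 0.934% lower. Hexa no longer reached that difference without line 3. Of the 4 untreated arrays, 1 stood apart from the other 3 by Dixon's value for 4 samples for 8 of the 40 genes, where 7.14% of all genes had such an array, and it was line 4 for 6 of them, against 3.99% of all genes. Of the 14 tested monocyte and macrophage markers, 6 were higher in line 4 by at least 1, and their part in its lysosomal levels was not tested. Without line 4 in the fit, 19 genes rose with SGC0946 and 2 fell.

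**Figure D3:**
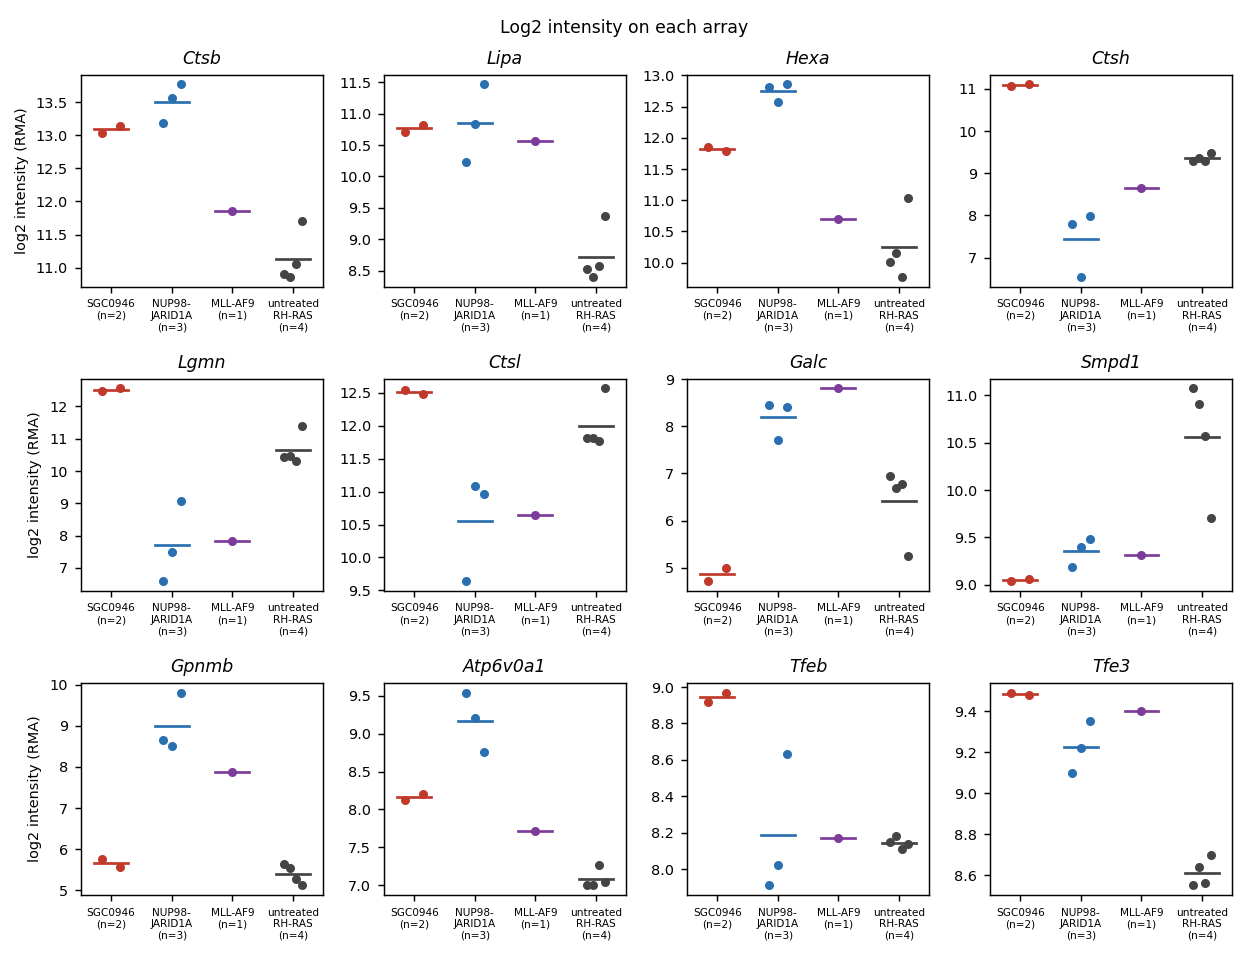
Log2 intensity on each array (y axis, points) with group means (bars) for 12 genes in SGC0946-treated RH-RAS, NUP98-JARID1A, MLL-AF9 and untreated RH-RAS lines. The y axes differ and do not start at 0. Ctsh, Lgmn and Ctsl are lowest in NUP98-JARID1A or MLL-AF9 lines, and Tfeb is above the untreated arrays on both treated arrays.

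NUP98-JARID1A lines were then compared with untreated RH-RAS lines, which carry other oncogenes. Of the 40 genes, 31 were higher in NUP98-JARID1A lines, 4 were lower and 5 did not pass (limma, adjusted p over 11993 genes). These lines differed widely, as 32.5% of all genes were higher and 18.5% lower. The median difference of the 40 genes was 0.86, against 0.10 for all genes. This comparison uses the same untreated lines 1 and 3 as the first, so the responses are not independent of each other. Without untreated line 4, 29 were higher and 4 lower.

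Gpnmb, a membrane glycoprotein of macrophages and melanocytes, had the largest difference. It read 8.65, 8.51 and 9.81 in NUP98-JARID1A lines 1 to 3, against 5.64, 5.54, 5.28 and 5.12 in untreated RH-RAS lines 1 to 4. The groups lay far apart, with RH-RAS values under the array median, at a difference of 3.59 ± 0.31 (limma adjusted p = 0.000131). Its second probe set, dimmer on average, differed by 0.72. Gpnmb passed the filter only through the fusion lines, so the filter itself favoured a difference. All 8 glycosidases were higher. Hexa read 12.82, 12.58 and 12.86 in NUP98-JARID1A lines, against 10.01, 10.15, 9.77 and 11.04 in untreated RH-RAS lines, and was 5.70-fold higher (2.51 ± 0.28; limma adjusted p = 0.000374). Neu1 read 9.49, 8.96 and 9.86 in NUP98-JARID1A lines, against 7.20, 7.29, 7.14 and 7.08 in untreated RH-RAS lines (2.26 ± 0.20; 0.000130). Gaa read 9.89, 10.13 and 10.68 in NUP98-JARID1A lines, against 7.75, 7.97, 8.10 and 8.41 in untreated RH-RAS lines (2.18 ± 0.22; 0.000236). None of these 3 glycosidases had overlapping groups, but the share of all genes without overlap in this comparison is not given here. Galc read 8.46, 7.72 and 8.42 in NUP98-JARID1A lines, against 6.95, 6.69, 6.78 and 5.24 in untreated RH-RAS lines, and was higher by 1.78 ± 0.42 (limma adjusted p = 0.0101). Man2b1, Gusb, Fuca1 and Glb1 were higher by 0.86, 0.75, 0.64 and 0.30. Gusb did not pass with its most variable probe set (0.20; 0.475) or with the mean of both (0.48; 0.0539), and Glb1 lost its call without any one of untreated lines 1, 2 and 4 or NUP98-JARID1A lines 2 and 3.

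**Figure D4:**
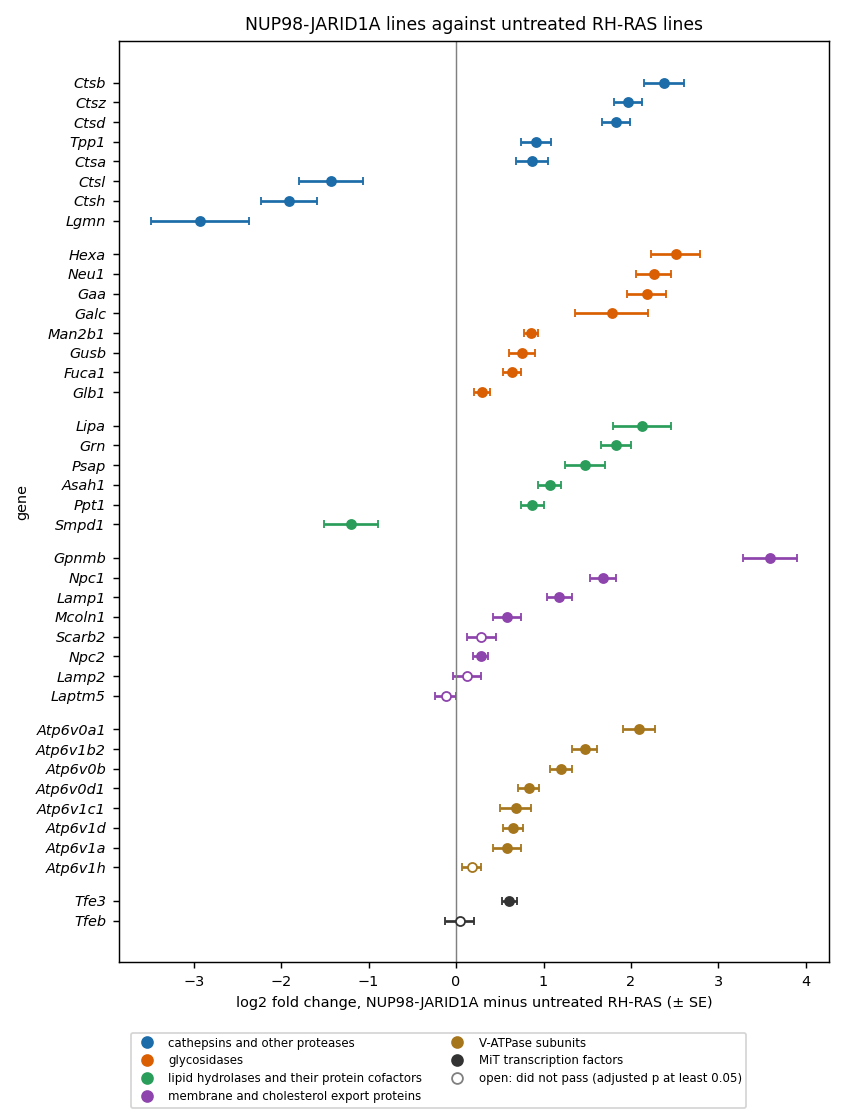
Log2 fold change of each gene in 3 NUP98-JARID1A minus 4 untreated RH-RAS lines (x axis, with SE bars), grouped by role (colours). Filled points passed the test and open points did not. Lgmn, Ctsh and Ctsl stand at −2.93, −1.91 and −1.43 while the other 5 proteases are above 0.

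The proteases divided, with 5 higher, 3 lower and 0 that did not pass. Ctsb read 13.19, 13.56 and 13.77 in NUP98-JARID1A lines, against 10.91, 10.86, 11.06 and 11.70 in untreated RH-RAS lines (2.38 ± 0.23; limma adjusted p = 0.000204). Ctsz was higher by 1.97 ± 0.16, Ctsd by 1.83 ± 0.16, Tpp1 by 0.91 ± 0.17 and Ctsa by 0.87 ± 0.18 (limma adjusted p of at most 0.00525). Ctsd read 12.89, 13.45 and 13.54 in NUP98-JARID1A lines, against 11.56, 11.46, 11.40 and 11.42 in untreated RH-RAS lines. Lgmn read 6.59, 7.50 and 9.08 in NUP98-JARID1A lines, against 10.42, 10.48, 10.31 and 11.40 in untreated RH-RAS lines. The NUP98-JARID1A lines varied most here (SD 1.26, n = 3), but all lay below the lowest RH-RAS line, and Lgmn was 7.60-fold lower (−2.93 ± 0.56; limma adjusted p = 0.00399). Ctsh read 7.79, 6.54 and 7.99 in NUP98-JARID1A lines, against 9.28, 9.35, 9.29 and 9.49 in untreated RH-RAS lines (−1.91 ± 0.32; 0.00223), and its second probe set differed by −1.99. Ctsl read 9.64, 11.08 and 10.96 in NUP98-JARID1A lines, against 11.82, 11.82, 11.77 and 12.57 in untreated RH-RAS lines (−1.43 ± 0.37; 0.0149). Set beside the first comparison, Ctsh stood at 1.81 with SGC0946 and at −1.91 in NUP98-JARID1A lines, and Lgmn at 2.16 and −2.93. Whether these values differ was not tested.

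Of the lipid hydrolases and cofactors 5 were higher and 1 was lower. Lipa read 10.23, 10.84 and 11.47 in NUP98-JARID1A lines, against 8.52, 8.40, 8.58 and 9.37 in untreated RH-RAS lines (2.13 ± 0.33; limma adjusted p = 0.00157). Grn was higher by 1.83 ± 0.17, Psap by 1.47 ± 0.23, Asah1 by 1.07 ± 0.13 and Ppt1 by 0.87 ± 0.13 (limma adjusted p of at most 0.00150). Smpd1 read 9.19, 9.40 and 9.48 in NUP98-JARID1A lines, against 11.07, 10.91, 10.57 and 9.70 in untreated RH-RAS lines. It was lower, at −1.20 ± 0.31 (limma adjusted p = 0.0141), with untreated line 4 only just above the NUP98-JARID1A lines. Of the membrane proteins 5 were higher, including Npc1 (1.68 ± 0.15), Lamp1 (1.18 ± 0.14), Mcoln1 (0.58 ± 0.16) and Npc2 (0.28 ± 0.09). Lamp1 read 12.78, 13.18 and 13.25 in NUP98-JARID1A lines, against 11.75, 11.80, 11.95 and 12.05 in untreated RH-RAS lines (limma adjusted p = 0.000404). Lamp2 was at 0.13 ± 0.16 (0.522), Scarb2 at 0.29 ± 0.17 (0.194) and Laptm5 at −0.12 ± 0.12 (0.428), and their groups overlapped. The other probe sets of Lamp2 differed by −0.17, 0.88 and −0.09. Scarb2 passed with its most variable probe set (0.48; limma adjusted p = 0.0422). Npc2 did not pass without untreated line 2, 3 or 4 or without NUP98-JARID1A line 2 or 3, nor did Mcoln1 without untreated line 2 or NUP98-JARID1A line 2 or 3.

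Of the 8 V-ATPase subunits 7 were higher in NUP98-JARID1A lines and Atp6v1h did not pass (0.18 ± 0.11; limma adjusted p = 0.193). Atp6v0a1 read 9.54, 9.20 and 8.76 in NUP98-JARID1A lines, against 7.0, 7.0, 7.27 and 7.05 in untreated RH-RAS lines, and was 4.25-fold higher (2.09 ± 0.18; limma adjusted p = 0.000129). The other 6 were higher by 0.58 (Atp6v1a) to 1.47 (Atp6v1b2), and Atp6v1c1 lost its call without NUP98-JARID1A line 3. Among the 9 other subunits of the pathway list 8 were higher, led by Tcirg1 (1.56 ± 0.12), Atp6v1e1 (0.75), Atp6ap1 (0.70) and Atp6v0a2 (0.55). Tfe3 read 9.10, 9.22 and 9.35 in NUP98-JARID1A lines, against 8.55, 8.64, 8.56 and 8.70 in untreated RH-RAS lines (0.61 ± 0.09; limma adjusted p = 0.00108). Tfeb read 7.91, 8.02 and 8.63 in NUP98-JARID1A lines, against 8.15, 8.18, 8.11 and 8.14 in untreated RH-RAS lines, and did not pass (0.04 ± 0.17; 0.850). Its NUP98-JARID1A values fell on both sides of a narrow untreated range.

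Tfec and Mitf, relatives of Tfeb, were higher. Tfec, a family member of macrophages, read 10.76, 8.83 and 11.11 in NUP98-JARID1A lines, against 4.41, 4.25, 4.62 and 5.02 in untreated RH-RAS lines (5.66 ± 0.52; limma adjusted p = 0.000162), and the RH-RAS values lay below the array median. Mitf read 8.73, 9.17 and 9.44 in NUP98-JARID1A lines, against 5.82, 5.64, 5.97 and 6.56 in untreated RH-RAS lines (3.11 ± 0.25; 9.57e-05). Of the 16 genes of that list 8 were higher and 1 lower, and the Ragulator subunit Lamtor4 was higher by 1.84 ± 0.11 and the GTPase gene Rragd lower, at −1.25 ± 0.33, having passed the filter only through untreated RH-RAS lines. Of the 29 further hydrolases and activators 17 were higher and 2 lower, with Gla, an alpha-galactosidase, at 2.06 ± 0.16, the thiol reductase Ifi30 at 1.68, Idua, an iduronidase, at 1.62 and Ctsw at −1.59 ± 0.54. Of 16 other membrane proteins 12 were higher and 1 lower, with Hgsnat, an acetyltransferase of heparan sulfate breakdown, at 2.88 ± 0.26, Slc11a1, a metal transporter of phagocytes, at 1.98, Cd68 at 1.86 and Ostm1 at 1.44. In the sorting list 4 were higher and 2 lower. Igf2r read 4.75, 4.81 and 4.67 in NUP98-JARID1A lines, against 8.19, 8.28, 7.83 and 7.0 in untreated RH-RAS lines (−3.08 ± 0.29; limma adjusted p = 0.000186). For the reason given above, the filter itself favoured this difference. Sort1, a sorting receptor, was higher by 2.39 ± 0.27 and Nagpa by 1.52, and Gnptab, which builds the mannose 6-phosphate tag, was at −0.77.

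Late neutrophil markers moved with this comparison, as 9 of 10 tested were higher in NUP98-JARID1A lines, led by S100a9 (9.67), S100a8 (9.23), Lcn2 (7.19) and Ngp (6.91). Of these 9 markers 8, including the 4 named, passed the filter on low values only through the NUP98-JARID1A arrays. The filter itself favoured a difference for these 8, so the count is no sign of a wider difference. The summed intensity of the 11 listed markers was 17802 to 88495 in NUP98-JARID1A lines, against 318 to 358 in untreated RH-RAS lines. All 8 stayed under the median of each RH-RAS array. Of the 14 tested monocyte and macrophage markers 7 were higher and 2 lower, among them Lyz2 (4.76), Adgre1 (3.93), Csf1r (3.44) and Cd163 (−4.29), and 1 of the 7 passed the filter only through the NUP98-JARID1A arrays. The summed intensity of the 17 listed markers was 28965 to 41142 in NUP98-JARID1A lines, against 6874 to 13525 in untreated RH-RAS lines. Bright genes weigh most in such a sum, and Lyz2 read 14.14 to 14.49 in NUP98-JARID1A lines. The median log2 level of the 17 was 6.32 to 7.24 in NUP98-JARID1A lines and 6.02 to 6.84 in untreated RH-RAS lines, so by the median the groups overlapped. Of the stem and progenitor markers Kit was higher (1.68), and Flt3 (−2.07) and Ptprc (−0.37) were lower. The part of these lists in the lysosomal differences was not tested.

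The spread within groups differed too. Over the 40 genes the median SD was 0.28 among the 3 NUP98-JARID1A lines and 0.15 among the 4 untreated RH-RAS lines, and 0.09 among untreated lines 1 to 3. For 29 genes the SD was larger in NUP98-JARID1A lines. The spread over all genes was not taken, so these values do not show a trait particular to lysosomal genes.

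MLL-AF9 cells were measured on 1 array, so no test was made. Genes were counted where it differed from the mean of the untreated RH-RAS lines by at least 1 and lay outside their range. By this rule 6 of the 40 genes were higher and 3 lower, against 7.21% and 5.78% of all genes. The median difference of the 40 was 0.44, against 0.07 for all genes. Gpnmb read 7.87 in MLL-AF9 cells, 2.48 above the RH-RAS mean, Galc 8.81 (2.39 above), Gaa 10.08 (2.02 above) and Lipa 10.57 (1.85 above). Neu1 and Grn were higher by 1.77 and 1.30. Lgmn read 7.84 in MLL-AF9 cells, against 10.31 to 11.40 in untreated RH-RAS lines, a difference of −2.81. Ctsl was at 10.65 and Smpd1 at 9.32 in MLL-AF9 cells, which is −1.34 and −1.24 from the RH-RAS mean. As the rule requires of genes counted as lower, all 3 lay below every untreated RH-RAS array. None of the 8 V-ATPase subunits met the rule, their differences running from −0.23 to 0.88. Tfe3 was at 9.40 in MLL-AF9 cells (0.79 above the mean) and Tfeb at 8.17 (0.03 above). Tfec was at 11.63 in MLL-AF9 cells, 7.06 above the RH-RAS mean. Markers of other cells differed as well. Of 10 tested late neutrophil markers 9 were higher by the same rule, at a summed intensity of 35220 in MLL-AF9 cells, against 318 to 358 in untreated RH-RAS lines, and 8 of the 9 passed the filter on low values only through the fusion lines. Of 14 monocyte and macrophage markers 5 were higher and 3 lower, and the list summed to 12790 in MLL-AF9 cells, against 6874 to 13525 in untreated RH-RAS lines. All 4 tested mast cell and basophil markers were higher, Mcpt8 by 3.80, Gata2 by 3.29, Hdc by 2.84 and Cpa3 by 1.38, and the 7 listed summed to 2482 in MLL-AF9 cells, against 358 to 541 in untreated RH-RAS lines. Mcpt8 passed the filter only through the fusion lines, and the listed Fcer1a (−0.14), Tpsb2 (0.14) and Ms4a2 (1.81) failed it. Of 7 T and NK cell markers 3 were lower, Gzma (−5.15), Cd3g (−3.65) and Klrd1 (−2.34), of which Gzma and Cd3g passed the filter only through untreated RH-RAS lines. Of 7 stem and progenitor markers Kit was higher (1.01), and Flt3 (−2.27) and Cd34 (−1.49) were lower. The part of these lists in the lysosomal differences of MLL-AF9 cells was not tested.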

How the data were processed

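Total RNA of 10 cultures was hybridised to 1 Affymetrix mouse array each. RMA, named in the submitters' processing notes without a version, gave the log2 intensity values that the authors deposited for every probe set. The columns were checked to share 1 scale (sorted columns differed by at most 0.163), and no further normalisation was applied. RMA compresses low intensities. Precision is set by how few arrays there were.

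Of 45101 probe sets, 34958 had 1 gene symbol in the platform annotation, 932 had several and 9211 were not listed, and 99.4% of those with 1 symbol matched the RefSeq table of GRCm38.p6, used for names. Each of 18194 genes was read from its probe set with the highest mean, and 11993 exceeded the median of at least 2 arrays. Linear models were fitted in R 4.3.3 by limma 3.58.1 (lmFit and eBayes, Benjamini-Hochberg adjustment, threshold 0.05). The SGC0946 effect came from all 10 arrays with 5 coefficients, as treated minus untreated lines 1 and 3, so other arrays enter only the spread. NUP98-JARID1A lines were set against untreated RH-RAS lines in the 8 arrays without inhibitor, with MLL-AF9 as its own coefficient. The code was tested on simulated data.

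Treated and untreated arrays of RH-RAS come from the same lines, so their numbers pair them (correlation of deviations 0.292 across genes). No label or header used here dates a scan, and batches were not modelled. Values on every array were given for up to 6 called genes with the largest change in each direction per tested comparison, the largest change in each role, and Tfeb, Tfe3, Lamp1 and Ctsd, with up to 4 called genes a direction for MLL-AF9. In the pathway lists (hydrolases and activators, V-ATPase subunits, membrane proteins, enzyme sorting, Tfeb regulators) and the marker lists (monocyte and macrophage, late neutrophil, stem and progenitor, mast cell and basophil, T and NK cell, B cell, erythroid) the rule named up to 4 called genes; a few more were chosen after their values were seen. The genes of the set and the lists were chosen with earlier results of these data known. Alternatives were no filter, other probe set choices, a variance trend, a line block, other control and array choices and leaving out each array.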

Additional observations from a re-analysis of the deposited data

Results flagged for a closer look

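In the 4 untreated RH-RAS lines, 8 of the 40 genes had 1 array set apart from the other 3 by more than Dixon's critical value for 4 samples, which sets that gap against the group's whole range. Chance gives this in about 1 of 20 groups, and 7.14% of all 11993 tested genes met it. Line 4 was the array for 6 of the 8 genes, and for 3.99% of all genes. It was highest for Ctsl (12.57, against 11.77 to 11.82 in lines 1 to 3), Ctsz (12.31, against 11.68 to 11.72), Lgmn (11.40, against 10.31 to 10.48), Grn (11.72, against 11.07 to 11.15) and Asah1 (10.65, against 10.54 to 10.55), and lowest for Galc (5.24, against 6.69 to 6.95). Line 3 was highest for Atp6v0a1 (7.27, against 7.0 to 7.05 in the other lines) and lowest for Ctsa (11.37, against 11.40 to 11.41), where the whole range was small.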

How the results depend on the processing

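In the SGC0946 and NUP98-JARID1A comparisons, no direction of a called gene was reversed under any alternative run. For SGC0946, 11 genes rose with the line as a replicate block (844 of all genes called), and 1 gene fell with the mean of all probe sets or with all 4 untreated lines as control. The 6 RH-RAS arrays alone called 2745 genes in all. Leaving out 1 array gave 0 to 26 risen and 0 to 2 fallen lysosomal genes, with 28 to 1855 calls over all genes. The lowest counts left a single array in one arm, which was assumed to vary like the other groups. In NUP98-JARID1A lines, 27 to 31 were higher and 4 lower with 1 array left out. The line number as a replicate block, where equal numbers name different lines (correlations of −0.0541, −0.0187 and 0.0703), left 32 of the 35 calls, without Glb1, Mcoln1 and Npc2. For MLL-AF9 the counts were 6 higher and 3 to 4 lower without 1 RH-RAS line. The mean of all probe sets dropped Ctsl, Galc and Neu1 and added Ctsz. With the most variable probe set 12 genes were called, Atp6v0b, Ctsz and Gusb being added. Gusb was lower there (−1.54), opposite in direction to the probe set used (0.67). For line 4, 0 genes were lower with the mean of all probe sets, 2 were higher with the most variable probe set, and 0 to 2 were higher without 1 of lines 1 to 3. The cause of these shifts was not tested. Signals near the array median, as for Gpnmb and Galc, limit what can be read from their sizes.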

Other observations

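Markers of other blood cells were measured on the same arrays. Of 7 T and NK cell markers 3 fell with SGC0946, Gzma (−5.25 ± 0.68), Cd3g (−4.19 ± 0.66) and Il2rb (−1.23), and stood at −5.26, −3.67 and −0.85 in NUP98-JARID1A lines, a comparison that shares untreated lines 1 and 3. All 3 passed the filter on low values only through untreated RH-RAS lines, so the filter itself favoured a difference. Of 4 tested mast cell and basophil markers, Cpa3 fell with SGC0946 (−2.24 ± 0.52; limma adjusted p = 0.0345; 0.0623 in the paired fit) and 3 were higher in NUP98-JARID1A lines, Mcpt8 (4.35 ± 0.57), Hdc (2.82) and Gata2 (1.42). Mcpt8 passed the filter only through the NUP98-JARID1A arrays, so the filter itself favoured a difference. Of 2 tested B cell markers, Cd79b was lower in NUP98-JARID1A lines (−1.97 ± 0.37), and of 2 tested erythroid markers, Epor was lower there (−0.37 ± 0.08). With SGC0946, 1 of 10 late neutrophil markers rose, Mmp8 (2.49 ± 0.34).

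Probe sets of 1 gene did not always give the same value. In MLL-AF9 cells, Gusb differed from the RH-RAS mean by 0.67 in the probe set used and by −1.54 in the other. In NUP98-JARID1A lines, Laptm5 differed by −0.12 in the probe set used, by −1.53 in another that passed the test (limma adjusted p = 0.00137) and by 0.45 in one more. For Man2b1, the second probe set changed by −0.23 with SGC0946, where the one used rose by 0.66.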
